A study of Mus musculus with 56 samples.

Results

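The cytosolic ribosomal protein (RP) genes were followed in mouse cortical and medullary thymic epithelial cells (cTECs and mTECs) around birth and through the regrowth of the thymus after it. They were chosen by symbol alone, as the protein-coding genes of GENCODE release M21 named Rpl or Rps with a number, together with Rplp0, Rplp1, Rplp2 and Rpsa, and without pseudogenes and Rps6k kinases. That rule gave 83 of the 50600 genes in the files, 51 of the large ribosomal subunit and 32 of the small, and 80 of them passed the filter for testing. The rule leaves out 4 RP genes with other symbols (Fau, Rpl36al and Rack1 among them) and the 78 mitochondrial RP genes, which are given below only for comparison.

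Poly-A RNA was sequenced from 56 sorted samples, 28 of cTECs and 28 of mTECs, each from 1 mouse. All were B6.SJL females. The non-pregnant controls (NPC) were age-matched, the others had been mated with BALB/cJ males and were taken at D-2, at 18 days of gestation, or at 14 time points from D0, the day of birth, to D28, with the pups taken away at birth. Per cell type there were 3 samples each at D0, D3, D6, D12, D-2 and NPC, and 1 sample at each of the other 10 time points. Early refers to D0 to D12, with 18 samples per cell type, and late to D16 to D28, with 4. The labels give no age in weeks.

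TECs were sorted as EpCAM+ CD45- cells, cTECs as UEA1- and mTECs as UEA1+, so the labels rest on a lectin and not on a gene product. The defining markers followed the labels: all 10 cortical markers (Psmb11, Prss16, Foxn1 and others) were higher in cTECs and all 10 medullary markers (Aire, Krt5, Ccl21a and others) higher in mTECs at an adjusted p of at most 0.05 in limma. They were not exclusive. The summed FPKM of the medullary markers had a mean of 6093 in cTECs against 16127 in mTECs, and that of the cortical markers 2752 in mTECs against 9551 in cTECs. Total expected counts ran from 4561208 to 108547384 per library. In 5 libraries (cTEC NPC replicate 3, cTEC D6 replicate 3, cTEC D16, cTEC D28 and mTEC D3 replicate 3) mitochondrially encoded genes held only 1.16% to 1.41% of counts, against 1.74% to 3.81% in the other 51. Comparisons that rest on them are also given without them, except those of the cell types at single time points. The summed FPKM of 13 immediate-early and heat-shock genes was 18268 in cTEC NPC replicate 3, against 7597 and 7678 in its replicates. It was 15307 in cTEC D6 replicate 3 against 4154 and 4136, and 16134 in mTEC D3 replicate 3 against 10300.5 and 10471. At D16 and D28 cTECs had 10980 and 13443, against 3771 and 5109 at D20 and D24. Outside the 5 libraries cTEC D0 replicate 2 had 13237. Samples of cells are bulk RNA, so that fewer cells of one type and less RNA per cell cannot be told apart.

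Every ribosome carries 1 copy of almost every RP, and cells make them in near equal amounts. Their mRNAs begin with a run of pyrimidines directly at the start of transcription, through which the kinase mTORC1 and the protein LARP1 set how many of them are translated when nutrients and growth signals change. RP mRNAs are among the most abundant of any cell, their level follows growth and the activity of MYC, and several RPs also act alone: Rpl5 and Rpl11 bind MDM2 and thereby stabilise p53, and Rpl22 is needed by developing αβ T cells.

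The start sites annotated in the reference were searched for a pyrimidine run near them, which was found in 35 of the 63 RP genes with an annotated start. The search did not ask that the mRNA begin with the run. In Rpl13, for example, the run of 10 bases began 16 bases before the annotated start and ended before it. RefSeq on GRCm38.p6 held promoters for these 63 of the 83 genes, 75 start sites in all. A run of at least 8 pyrimidines within 30 bases on either side of the start, on the coding strand, was present in 49.3% of them, against 22.9% of all 32851 promoters. The same promoters, from 250 bases before the start to 50 after, were searched on both strands for short motifs, which can overlap each other. CCGGAAG, the core bound by ETS factors, lay in 36% of RP promoters and 8.86% of all, and AANATGGCG, a YY1 motif, in 13.3% and 2.38%. GGGCGG, the GC box, was found in 60% and 35.7%, the E-box CACGTG in 10.7% and 7.15%, and TATAAA, the TATA box, in 9.33% of RP promoters and 13.6% of all. A match is a string of letters and not a site shown to be bound. The windows below run from 40 bases before the annotated start to 15 bases from it on the coding strand of GRCm38.p6, with the longest pyrimidine run in capitals. Rpl7a (chr2:26910767-26910821, +) and Rpl34 (chr3:130730323-130730377, -) are shown for their long runs, Rpl13 (chr8:123102310-123102364, +) and Rpl28 (chr7:4792925-4792979, +) because they were among the genes that were lower in late cTECs, Rps9 (chr7:3704001-3704055, +) and Rpl15 (chr14:18270972-18271026, -) because they were among those that differed most between cTECs and mTECs, and Rpl22l1 (chr3:28805468-28805522, +) as the paralog of Rpl22. Rps13 (chr7:116334176-116334230, -), Rps3 (chr7:99483695-99483749, -) and Rps4x (chrX:102189377-102189431, -) have no such run in their window.
Rpl7a: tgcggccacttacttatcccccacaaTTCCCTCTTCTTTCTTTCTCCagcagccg
Rpl34: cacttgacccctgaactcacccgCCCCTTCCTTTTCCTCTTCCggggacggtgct
Rpl13: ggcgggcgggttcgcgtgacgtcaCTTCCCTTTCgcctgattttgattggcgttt
Rpl28: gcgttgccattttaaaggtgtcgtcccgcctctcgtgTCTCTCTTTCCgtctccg
Rps9: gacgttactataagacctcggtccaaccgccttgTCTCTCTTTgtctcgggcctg
Rpl15: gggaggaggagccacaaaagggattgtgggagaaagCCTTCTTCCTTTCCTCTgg
Rpl22l1: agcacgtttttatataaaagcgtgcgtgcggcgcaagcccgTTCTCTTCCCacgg
Rps13: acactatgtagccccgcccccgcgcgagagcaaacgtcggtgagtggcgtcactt
Rps3: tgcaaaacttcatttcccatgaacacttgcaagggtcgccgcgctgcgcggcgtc
Rps4x: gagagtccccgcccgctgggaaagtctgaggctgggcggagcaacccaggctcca

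Nearly every RP gene was expressed in both cell types. Levels are given in FPKM, fragments counted per length of transcript and per depth of the library, so that genes of different length can be set side by side. Of the 83 genes, 77 had counts in all 56 libraries, 76 had a mean of at least 100 FPKM and 32 a mean of at least 1000 FPKM. Among the highest were Rpl13a at 2544 ± 479 FPKM (SD, n = 56; chr7:45125558-45128761), Rpl41 at 2259 ± 553 (chr10:128548114-128549305), Rpl23a at 1835 ± 360 (chr11:78180932-78183584) and Rps15 at 1765 ± 354 (chr10:80292453-80294114). Rpl13a, Rpl41 and Rpl23a are proteins of the large subunit, Rpl23a at the mouth of the tunnel through which the new protein leaves, and Rps15 sits in the head of the small subunit. The ranges of these 4 genes over the libraries overlapped.

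The proteins of the stalk that recruits elongation factors, Rplp0, Rplp1 and Rplp2, had mean levels of 1033 ± 210, 1489 ± 328 and 1185 ± 304 FPKM (SD, n = 56). Rpsa, a small-subunit protein also known as the laminin receptor, had a mean of 1295 ± 299 FPKM. Each of the 4 was detected in all 56 libraries.

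The tissue-restricted paralogs were at or near 0. Rpl10l, a testis gene, had no count in any of the 56 libraries. Rpl3l, the muscle form of Rpl3, had a count in 10 libraries and a mean of 0.118 FPKM, and Rpl39l, known from testis, in 8 libraries and a mean of 0.163 FPKM. Their parents were abundant, with means of 564 ± 265 FPKM for Rpl10, 1054 ± 158 for Rpl3 and 673 ± 154 for Rpl39.

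**Figure D1:**
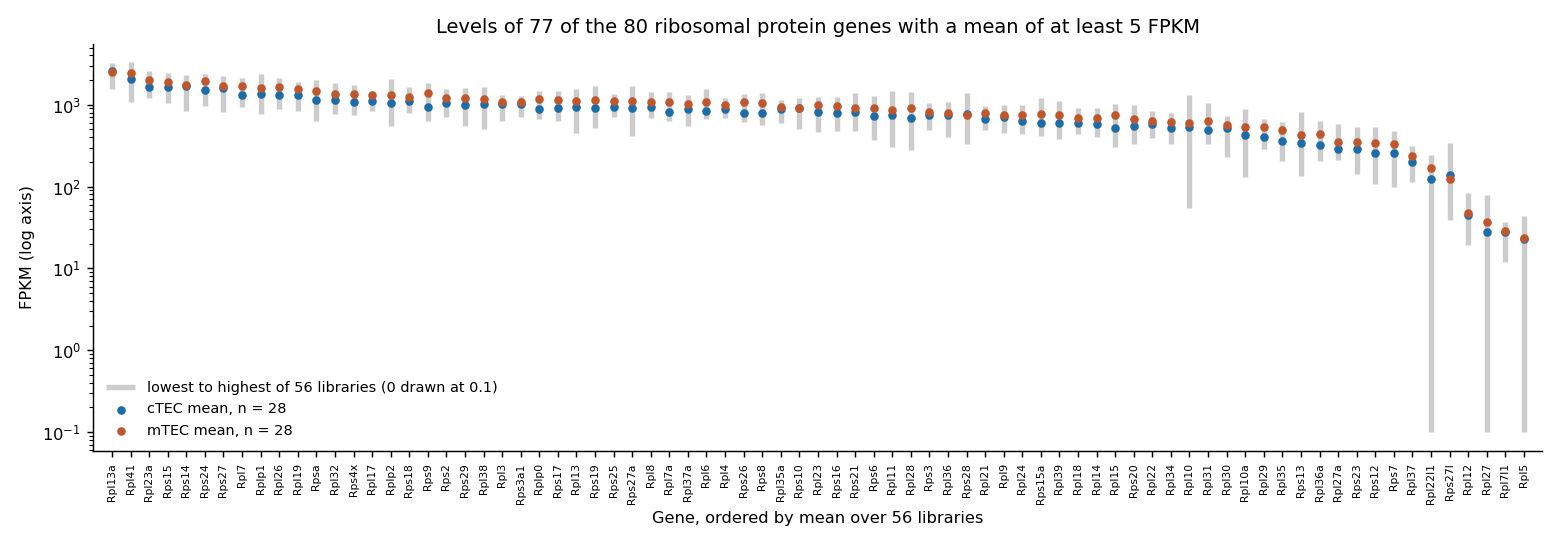
Level of 77 of the 80 RP genes with a mean of at least 5 FPKM (x axis, ordered by mean over 56 libraries) on a log axis of FPKM. Points are the means of 28 cTEC and 28 mTEC libraries and grey bars run from the lowest to the highest library, with 0 drawn at 0.1. Most means lie above 100 FPKM, and Rpl5, Rpl7l1 and Rpl27 are the lowest, at 23.2, 28.02 and 32.6 FPKM.

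For 3 of the genes at low levels, Rpl5, Rpl27 and Rpl12, most counts of the family lay on other genes, whereas no copy was found for Rpl7l1. Rpl5 (chr5:107900502-107909005, +), whose protein binds MDM2, had 23.2 ± 8.69 FPKM (SD, n = 56), while Gm15500 on chromosome 7, annotated as a transcribed processed pseudogene and identical to it over all 894 coding bases, had 928 FPKM. For each RP gene the other genes that shared at least 10% of its words of 60 bases were taken as its copies. Of the counts of Rpl5 and its copies, 96.7% were assigned to the copies, and the same held for 96.5% of those of Rpl27 and 94.4% of those of Rpl12. Reads from identical stretches cannot be placed, so the levels of these genes are uncertain and depend on how the counting program divided the reads. In all, 12 genes had more than 50% of such counts on copies: Rps12 75.9%, Rpl28 66.6%, Rpl10 66.1%, Rps23 64.1%, Rpl31 61.0%, Rpl35 59.4%, Rpl27a 57.6%, Rpl10a 56.9% and Rps7 53.2% besides the 3 named. By this 10% rule no copy was found for Rps3, Rps9, Rps14, Rps24, Rps27l or Rpl22. Other genes still held part of the words of each, from 2.3% for Rps3 to 8.8% for Rps27l. The windows below show 60 coding bases of 4 genes that were identical, base for base, in the copy named, and are given to show why a read of that length cannot tell them apart. They were read from GENCODE M21 transcripts on GRCm38, at chr5:107903759-107903818 (+) for Rpl5 and Gm15500, chr2:32962994-32963053 (+) for Rpl12 and Gm10275 on chromosome 10, chr7:116332994-116333053 (-) for Rps13 and Rps13-ps2, and chr8:123103225-123103284 (+) for Rpl13 and Gm12918 on chromosome 4.
Rpl5: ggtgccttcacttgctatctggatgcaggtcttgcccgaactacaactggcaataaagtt
Rpl12: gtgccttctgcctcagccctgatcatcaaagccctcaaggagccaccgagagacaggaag
Rps13: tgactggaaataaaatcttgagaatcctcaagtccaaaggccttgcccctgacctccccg
Rpl13: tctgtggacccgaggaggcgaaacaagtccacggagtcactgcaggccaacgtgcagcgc

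**Figure D2:**
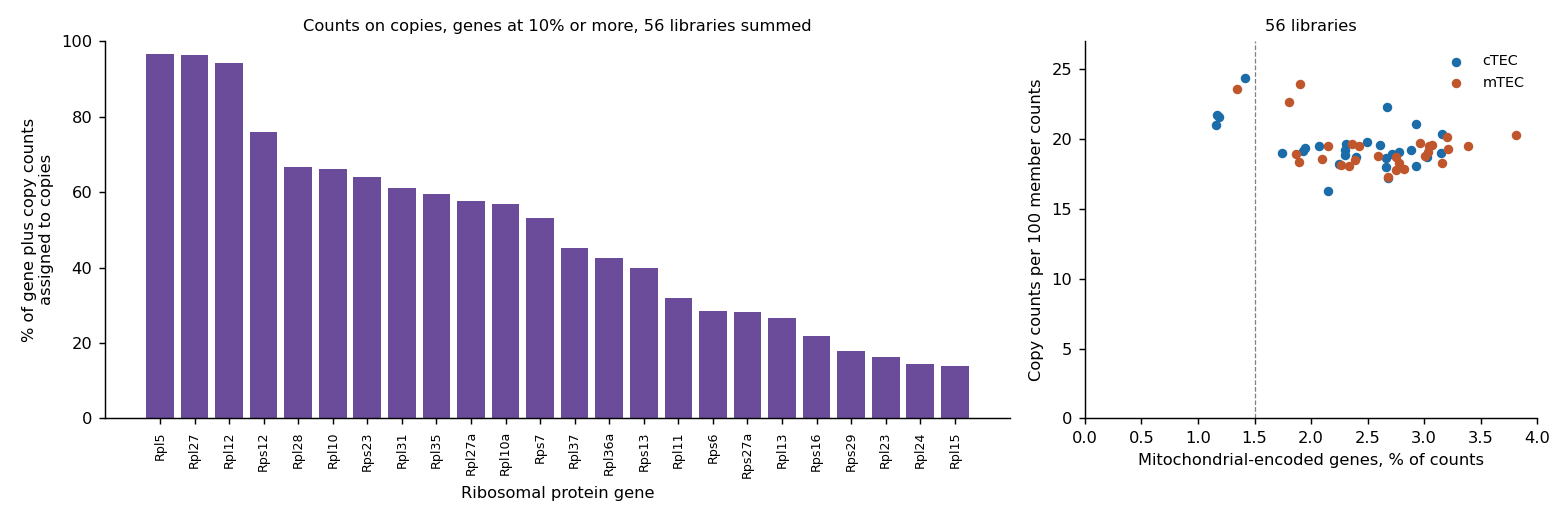
Left, percent of the counts of each RP gene and its copies, summed over 56 libraries, that were assigned to the copies, for genes at 10% or more. Right, copy counts per 100 RP counts against the mitochondrially encoded share of counts in each library, with a dashed line at 1.5%. Rpl5, Rpl27 and Rpl12 stand above 90%, and the 5 libraries left of the line hold 20.99 to 24.4 copy counts per 100 RP counts, against 16.3 to 23.9 in the other 51.

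Most members moved together across libraries. The correlation of each of the 80 tested genes with the median of the others, over the 28 libraries of a cell type, had a median Pearson r of 0.764 in cTECs, from -0.06 to 0.968, and 0.833 in mTECs, from -0.03 to 0.973. It was over 0.5 for 66 genes in cTECs and 73 in mTECs. These are descriptions over genes that share libraries and scaling. The genes that varied most relative to the other members were Rpl27, Rpl22l1, Rpl10, Rpl5 and Rps27l, and Rps27l, Rpl22l1, Rpl10 and Rpl12 had the lowest r in cTECs, at -0.06, -0.05, -0.03 and -0.02.

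Of these, Rpl22l1 and Rps27l are paralogs that a cell can use in place of Rpl22 and Rps27, and p53 induces Rps27l. Rpl22l1 (chr3:28805436-28807424, +) stood at 22.3 ± 8.05% of the level of Rpl22 in cTECs (SD, n = 28), with 0% in 1 library, cTEC D3 replicate 2, where it was listed at 0, and at 26.6 ± 6.15% in mTECs. Its level was lower in cTECs than in mTECs (log2 fold change -0.38, SE 0.13, limma adjusted p = 0.0121), while Rpl22 was not called (0.02, SE 0.05, adjusted p = 0.741). Rps27l (chr9:66946086-66949516, +) stood at 9.37 ± 6.76% of Rps27 in cTECs, with a median of 8.56%, and at 7.48 ± 2.61% in mTECs. Its highest value in cTECs, 41.8%, came from 1 D3 library, while the lowest and the median at D3 were 5.74% and 7.42%. In cTEC D3 replicate 2, where Rpl22l1 was listed at 0, 10079 genes were detected, against 16594 and 14681 in its replicates. The weight of single D3 libraries in the r values and the variation of both genes was not tested. Rpl7l1 stood at 2.14 ± 0.354% and 1.704 ± 0.378% of Rpl7.

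The share of all expected counts that the 83 genes held together was higher in mTECs than in cTECs on average and lower in the late than in the early samples of both. It is given as a description, without a test. It was 3.83 ± 0.478% in cTECs and 4.57 ± 0.751% in mTECs (SD, n = 28 each). In cTECs it was 3.23%, 3.56% and 3.27% in the NPC samples. At D-2 it was 4.29%, 3.71% and 3.81%, above all 3 NPC samples, and at D0 4.40%, 4.04% and 3.93%. It was 3.50%, 4.00% and 2.86% at D6, 3.95%, 4.29% and 3.84% at D12, and 2.77%, 3.34%, 3.64% and 3.18% at D16, D20, D24 and D28. The lowest of the early values, 2.86%, came from one of the 5 libraries with a low mitochondrially encoded share, as did 3.27% at NPC, 2.77% at D16 and 3.18% at D28.

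In mTECs the share spread more within a time point. The NPC samples had 5.47%, 5.59% and 3.49%, the D-2 samples 3.28%, 3.27% and 4.72%, and the D0 samples 4.95%, 3.50% and 4.204%, and these groups overlapped. At D6 it was 5.09%, 4.54% and 5.08% and at D12 5.59%, 5.25% and 5.14%. The 4 late samples had 3.48%, 4.51%, 4.02% and 4.22%, with a mean of 4.06 ± 0.435% against 4.78 ± 0.616% in the 18 early ones. The balance of the subunits moved little. Large-subunit genes had 1.46 ± 0.0428 counts for each small-subunit count in cTECs and 1.42 ± 0.0282 in mTECs (SD, n = 28 each).

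**Figure D3:**
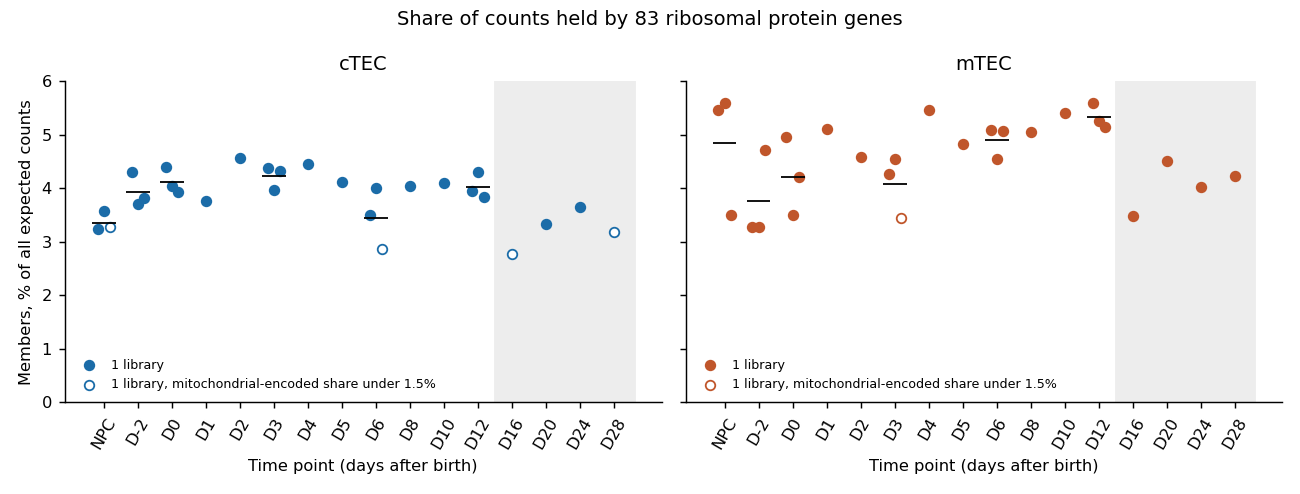
Percent of all expected counts held by the 83 RP genes in each library, by time point, in cTECs (left) and mTECs (right). Each point is 1 library, open points have a mitochondrially encoded share under 1.5%, the bar is the mean of 3, and the late time points are shaded. In cTECs all 3 D-2 samples (3.71% to 4.29%) lie above the 3 NPC samples (3.23% to 3.56%), while in mTECs the groups overlap.

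Several other measures moved with the share. Over the 28 libraries of each cell type its Spearman correlation was 0.79 in cTECs and 0.82 in mTECs with the summed FPKM of 21 translation factors and other mRNAs with the pyrimidine run (Pearson 0.81 and 0.81). It was 0.76 and 0.88 with the 4 RP genes outside the symbol rule (Pearson 0.79 and 0.91), and -0.61 and -0.81 with the mean effective transcript length of the library (Pearson -0.61 and -0.78). The Spearman correlation was 0.63 and 0.84 with the share of the mitochondrial RP genes, and 0.78 and 0.95 with that of the copies. It was 0.32 and 0.53 with the medullary markers, 0.38 and 0.59 with the pan-epithelial markers and 0.30 and 0.57 with ribosome biogenesis genes. With the cortical markers it was -0.03 and 0.20, and with cell-cycle genes 0.02 and 0.24. With 20 regulators of the family, MYC and mTORC1 among them, it was 0.14 and -0.30. With 13 immediate-early and heat-shock genes it was -0.19 and -0.40. All of these points share library preparation and scaling, and the part of fragment length in the share was not tested.

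The first comparisons asked what happened to the RP genes by the end of gestation, in limma-voom on counts, with a gene called where its p, adjusted by Benjamini and Hochberg over all genes tested, did not exceed 0.05. Between D-2 and NPC no RP gene was called in cTECs, against 0.353% of the 15845 genes tested, in either direction. Their direction was largely shared: 74 of 80 genes had a positive fold change and 6 a negative one, with a median log2 fold change of 0.25 against 0.03 for all genes tested, and 21 genes had an unadjusted p under 0.05, against 8.36% of all genes tested. edgeR called 0 genes and DESeq2 1, Rpl37. In FPKM the 3 D-2 samples lay above all 3 NPC samples for 20 of 80 genes and below them for 1, against 6.54% and 7.56% of all genes tested. Rpl10a, a protein of the stalk that releases used transfer RNA, read 332, 287 and 220 FPKM at NPC and 384, 474 and 579 at D-2 (log2 fold change 0.78, SE 0.29, adjusted p = 0.444), without overlap. Rpl27 and Rpl10 had larger fold changes, 1.62 (SE 1.35, adjusted p = 0.837) and 1.04 (SE 0.55, adjusted p = 0.653), with wide errors and overlapping groups, and both have copies. The lowest were Rps27l at -0.64 (SE 0.33, adjusted p = 0.638), Rpl36a at -0.21 (SE 0.26, adjusted p = 0.93) and Rpl15 at -0.12 (SE 0.24, adjusted p = 0.977). Without the NPC library with a low mitochondrially encoded share the median was 0.20. Of 10 cortical TEC markers 8 were lower at D-2, and their part in the RP values was not tested.

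From D-2 to D0 no RP gene was called in cTECs, where no gene at all was called (0% of 15845). The members' median was 0.05 against 0.01 for all genes, 55 positive and 25 negative, no member had an unadjusted p under 0.05, against 3.93% of all genes, and edgeR and DESeq2 called 0. In FPKM the D0 samples lay above all D-2 samples for 10 of 80 genes and below for 2, against 7.07% and 4.80% of all genes tested. Rps27l had the highest value, 0.38 (SE 0.30, adjusted p = 0.999), and Rpl22l1 the lowest, -0.26 (SE 0.40, adjusted p = 0.999).

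D6 against D-2 is the contrast in which the study looked for genes of regrowth, and in cTECs 1 RP gene was called, lower, against 2.90% of the 15845 genes tested that were called lower, a share of the members below that background. The count was 0 in edgeR, without any 1 of the 3 D-2 samples, without D6 replicate 1 and without D6 replicate 3, whose mitochondrially encoded share was low. Leaving out D6 replicate 2 gave 6 calls.

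The other RP genes did not pass the test. The median log2 fold change was -0.21 against -0.02 for all genes tested, 66 genes were negative and 14 positive, and 14 had an unadjusted p under 0.05, against 19% of all genes tested. edgeR called 0 genes and DESeq2 10, of which 9 were lower and 1 higher. The D6 samples lay below all D-2 samples in FPKM for 13 of 80 genes and above for 2, against 12.3% and 12.6% of all genes tested. Without the 5 libraries with a low mitochondrially encoded share the median was -0.10 and no gene was called. Rps27l went the other way: it read 91.8, 82.95 and 76.9 FPKM at D-2 and 139, 196 and 152 at D6 (log2 fold change 0.94, SE 0.30, adjusted p = 0.0786), and its groups did not overlap. It was chosen here after its values were seen. Markers of other cells and states moved in this contrast. Of the cortical TEC markers 8 of 10 were higher at D6, of the thymocyte markers 3 of 20 were higher, and of the medullary markers 4 of 10 were lower. Of 13 immediate-early and heat-shock genes 2 were lower, with a median of -0.67. The part of all these genes in the RP values was not tested.

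Between D12 and D6 no RP gene was called in cTECs (0.00631% of 15845 genes). The members' median was 0.25 against 0.08 for all genes, with 72 positive and 8 negative and 24 at an unadjusted p under 0.05, against 10.6% of all genes, and edgeR and DESeq2 called 0. The 3 D12 samples lay above the D6 samples for 22 of 80 genes and below for 2, against 9.28% and 9.81% of all genes tested. Rpl37 read 156, 198 and 137 FPKM at D6 and 230, 237 and 220 at D12 (log2 fold change 0.49, SE 0.13, adjusted p = 0.19), and Rps14 had 0.55 (SE 0.23, adjusted p = 0.398). At the low end stood Rpl5 at -0.35 (SE 0.21, adjusted p = 0.612), Rpl12 at -0.32 (SE 0.18, adjusted p = 0.572) and Rpl10 at -0.19 (SE 0.49, adjusted p = 0.945), all of them genes with copies. The 3 D6 samples enter this comparison and the last, and without the D6 library with a low mitochondrially encoded share and its like the median was 0.11.

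Between D-2 and NPC no RP gene was called in mTECs (2.32% of 17743 genes in either direction). The median log2 fold change was -0.27 against 0.17 for all genes tested, 74 genes were negative and 6 positive, and 10 had an unadjusted p under 0.05, against 16.4% of all genes tested. edgeR called 0 and DESeq2 1, Rpl9. The all-gene median moved with the tool, to 0.01 in edgeR and -0.01 in DESeq2, and the calls over all genes from 360 higher and 52 lower to 263 and 83 in DESeq2. NPC replicate 3 decided the count: without it 12 RP genes were called and the median was -0.49, and without D-2 replicate 3 the count was 2, Rpl9 and Rps3a1. That NPC library had 23.9 copy counts per 100 RP counts. Rps27l read 155, 227 and 171 FPKM at NPC and 63.1, 64.5 and 93.4 at D-2, without overlap (log2 fold change -1.04, SE 0.31, adjusted p = 0.0913). Rpl9, a large-subunit protein, read 944, 989 and 816 FPKM at NPC and 512, 447 and 700 at D-2, also without overlap (log2 fold change -0.64, SE 0.20, adjusted p = 0.106). Rpl10 stood at -0.996 (SE 0.47, adjusted p = 0.298). The highest were Rpl12 at 0.62 (SE 0.31, adjusted p = 0.324), Rpl10a at 0.16 and Rpl31 at 0.11, all with over 50% of their counts on copies. In FPKM 7 of 80 genes had D-2 samples below all NPC samples and 0 above, against 8.16% and 6.28% of all genes tested. Of 14 cell-cycle genes 3 were lower at D-2, and their part in the RP values was not tested.

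From D-2 to D0 no gene was called in mTECs (0% of 17743), the members' median was 0.07 against -0.10 for all genes, and 1 member had an unadjusted p under 0.05, against 6.35% of all genes, with 0 calls in edgeR and DESeq2. In FPKM 1 member had D0 samples above all D-2 samples and 1 below, against 5.06% and 7.06% of all genes tested. Rpl5 and Rpl27 had the lowest values, -3.19 (SE 1.39, adjusted p = 0.778) and -3.09 (SE 1.75, adjusted p = 0.818), and both were listed at 0 in 1 library, D0 replicate 2, while Rpl5 read 15.1 and 20.7 FPKM in the other 2. Rps3, Rps6 and Rpl34 had the highest values, 0.31, 0.30 and 0.26.

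From D-2 to D6 no RP gene was called in mTECs (0.417% of 17743 genes), but 79 of 80 had a positive fold change, with a median of 0.36 against 0.01 for all genes tested and with Rpl22l1 as the exception at -0.03 (SE 0.24). An unadjusted p under 0.05 was found for 9 of 80 genes, against 7.57% of all genes tested. edgeR and DESeq2 called 0 RP genes, and limma-voom with sample quality weights called 65. The 0.417% is of the main fit, and the share of all genes called with these weights is not given here. The D6 samples lay above all D-2 samples in FPKM for 24 of 80 genes and below for 0, against 10.9% and 12.9% of all genes tested. Rps3, at the entry of the mRNA into the small subunit, read 579, 493 and 823 FPKM at D-2 and 995, 870 and 1050 at D6 (log2 fold change 0.58, SE 0.21, adjusted p = 0.378). Rps10 read 610, 610 and 854 at D-2 and 953, 981 and 1116 at D6 (0.56, SE 0.23, adjusted p = 0.532), and neither overlapped. Rps27l had 0.55 (SE 0.36, adjusted p = 0.854), and Rpl12 and Rpl36a the lowest positive values, 0.07 and 0.11. Of 10 cortical TEC markers 5 were higher at D6 in the mTEC samples, with a median over the 10 of 1.38, among them Psmb11 at 2.94 (SE 0.63, adjusted p = 0.0453) and Prss16 at 2.73 (SE 0.41, adjusted p = 0.0126), a proteasome subunit and a protease of cTECs. Of 4 pan-epithelial markers 1 was higher and of 14 cell-cycle genes 1. Their part in the RP values was not tested.

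Between D12 and D6 no RP gene was called in mTECs (0.0902% of 17743 genes), 43 were positive and 37 negative, the median was 0.02 against -0.10 for all genes, and 1 had an unadjusted p under 0.05, against 8.75% of all genes, with 0 calls in edgeR and DESeq2. The D12 samples lay above all D6 samples in FPKM for 18 of 80 genes and below for 2, against 12.3% and 6.92% of all genes tested. Rpl22l1 was the gene with that p: it read 156, 141 and 148 FPKM at D6 and 222, 234 and 205 at D12, without overlap (log2 fold change 0.52, SE 0.23, adjusted p = 0.511). Rpl10 and Rps15a followed at 0.43 and 0.32, and Rps23, Rps29 and Rps28 were the lowest at -0.29, -0.26 and -0.24. Of 10 cortical TEC markers 5 were lower at D12, and their part in the RP values was not tested. The D-2 samples of mTECs enter 3 of these comparisons and the D6 samples 2, as they do in cTECs, so the comparisons are not independent of each other.

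Whether the step from D-2 to D6 differed between cell types was tested as an interaction. No RP gene was called, against 0.0272% of 18394 genes in either direction. The difference, cTEC minus mTEC, had a median of -0.54 against -0.12 for all genes tested, 77 of 80 were negative and 3 positive, and 33 had an unadjusted p under 0.05, against 5.05% of all genes tested. edgeR and DESeq2 called 0 and sample quality weights 38, while the 0.0272% is of the main fit only. Rps14 (-0.9996, SE 0.38, adjusted p = 0.786) and Rps3 (-0.88, SE 0.26, adjusted p = 0.484), small-subunit genes with no copies, were among the lowest. In FPKM, Rps14 read 2055, 1628 and 1846 at D-2 and 1356, 1684 and 834 at D6 in cTECs. In mTECs it read 1164, 1198 and 1948 at D-2 and 1889, 2016 and 2092 at D6, so the groups overlapped in each cell type. Rps27l, Rpl12 and Rpl36a had positive differences of 0.40, 0.17 and 0.00. Without the 5 libraries with a low mitochondrially encoded share the median was -0.43.

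Of the comparisons over time, that of the late with the early phase had the most calls. In cTECs 34 of 80 RP genes were lower at D16 to D28 than at D0 to D12 and none was higher, against 4.72% of the 15833 genes tested that were called lower. They were 19 large-subunit and 15 small-subunit genes. The median log2 fold change was -0.36 against -0.04 for all genes, 76 genes were negative, and 62 had an unadjusted p under 0.05, against 27.2% of all genes tested. The 4 with a positive value, Rpl27 (0.46), Rpl12 (0.37), Rpl22l1 (0.16) and Rpl5 (0.12), were not called. In FPKM no RP gene had late samples that all lay below or all above the early ones, as 0.126% and 0.442% of all genes tested did.

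Rps27a, which is made as a fusion with ubiquitin and had 28.1% of its counts on copies, read 415, 414, 788 and 570 FPKM at D16, D20, D24 and D28. The 18 early samples ran from 675 to 1292 with a median of 998. Its log2 fold change was -0.94 (SE 0.16, adjusted p = 0.00129), and only the D24 sample reached into the early range. Rpl13 read 454, 696, 815 and 614 FPKM against 641 to 1385 with a median of 1032 (log2 fold change -0.74, SE 0.15, adjusted p = 0.0032). Both remained called with the counts of their copies added.

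Rpl10a read 132, 309, 392 and 166 FPKM late against 212 to 833, with a median of 465, early (log2 fold change -1.02, SE 0.23, adjusted p = 0.00828). Rps13 read 136, 283, 305 and 146 against 176 to 546, with a median of 371 (-0.92, SE 0.19, adjusted p = 0.00489). Rpl28 read 314, 615, 625 and 318 against 278 to 1071, with a median of 780 (-0.81, SE 0.21, adjusted p = 0.0174). In these 3 genes D16 and D28, the late samples with a low mitochondrially encoded share, were the lowest. Without the low libraries Rpl10a (-0.54, adjusted p = 0.0721) and Rpl28 (-0.48, adjusted p = 0.127) were no longer called. With the counts of the copies added Rps13 (-0.31, adjusted p = 0.102) and Rpl28 (-0.41, adjusted p = 0.0735) were no longer called.

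Among the other called genes were Rpl13a (-0.54, adjusted p = 0.00549), among the highest of the family, Rpl11 (-0.73, adjusted p = 0.0107), the partner of Rpl5, and Rpl41 (-0.63, adjusted p = 0.0227). Of the stalk, Rplp0 (-0.35, adjusted p = 0.0367) and Rplp2 (-0.67, adjusted p = 0.00881) were called and Rplp1 (-0.43, adjusted p = 0.0797) was not. Rps3, a small-subunit gene with no copies, was called as well (-0.38, adjusted p = 0.0461). Of the members with a pyrimidine run within 30 bases of an annotated start 15 of 34 were called, with a median of -0.36, and of those without one 11 of 26, with a median of -0.34.

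The count in late cTECs moved in both directions with the libraries and settings used. It was 17 without D16 and 13 without D28, 30 without D20 and 40 without D24, and 11 with a median of -0.28 when the libraries with a low mitochondrially encoded share, D16 and D28 among them, were left out. Of these 11 genes 9 were among the 34. edgeR called 19 and DESeq2 27, all of them among the 34. It rose to 52 without a filter on low values, 30 of them among the 34, to 57 with 1 mean per time point and to 69 with sample quality weights, both of which held all 34. Over all genes tested 950 were higher and 747 lower in late cTECs, and 1293 and 524 without TMM, where 24 RP genes were called, again lower. With D12 counted as late no gene was called and the median was -0.20. Several lists of other genes moved in the same contrast. Of 6 fibroblast markers tested 4 were higher in late cTECs, with a summed FPKM of 295 to 681 against 79.5 to 360 in early ones, 2 of 4 pan-epithelial markers were lower, at 2753 to 6463 FPKM against 4066 to 11823, and thymocyte markers gave 0 calls of 20. Of 10 medullary TEC markers 4 were higher in late cTECs, with log2 fold changes of 3.08 for Cd80, 2.07 for Aire, 0.83 for Tnfrsf11a and 0.79 for Krt14, while the summed FPKM of the list was 4468 to 7363 against 3687 to 8047. Of 10 cortical markers 3 were lower, Psmb11 at -1.35, Foxn1 at -1.28 and Cxcl12 at -0.70, with sums of 5289 to 15062 FPKM against 3472 to 15821. Of 9 macrophage and dendritic cell markers tested 1 was higher and of 14 cell-cycle genes 1 was lower. Their part in the RP values was not tested.

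In mTECs 2 RP genes were called between late and early, both lower and both of the small subunit, against 0.508% of 17725 genes called lower. Rps4x (chrX:102184941-102189394, -), an X-linked gene of the small subunit, read 1036, 1172, 952 and 1186 FPKM late against 1137 to 1554, with a median of 1425, early (log2 fold change -0.41, SE 0.09, adjusted p = 0.0147). Rps3 (chr7:99477896-99483738, -) read 628, 709, 649 and 650 FPKM against 623 to 1050, with a median of 914 (-0.38, SE 0.10, adjusted p = 0.0405). Both overlapped the early range, as every RP gene tested did, while 0.0282% of all genes tested had all late samples below and 0.130% all above. The family had a median of -0.26 against 0.04 for all genes, 76 genes were negative, and 31 had an unadjusted p under 0.05, against 20.1% of all genes tested. edgeR called 0 and DESeq2 2, the same genes, and 53 were called without a filter on low values. Over all genes tested 328 were higher and 90 lower, and 28 and 74 in DESeq2. The count of RP genes was 1 without D16, 0 without D24, 6 without D28 and 12 without the early D3 library with a low mitochondrially encoded share. Of 10 cortical TEC markers 6 were lower in late mTECs, and their part in these values was not tested. Whether the late difference was larger in cTECs than in mTECs was not tested.

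**Figure D4:**
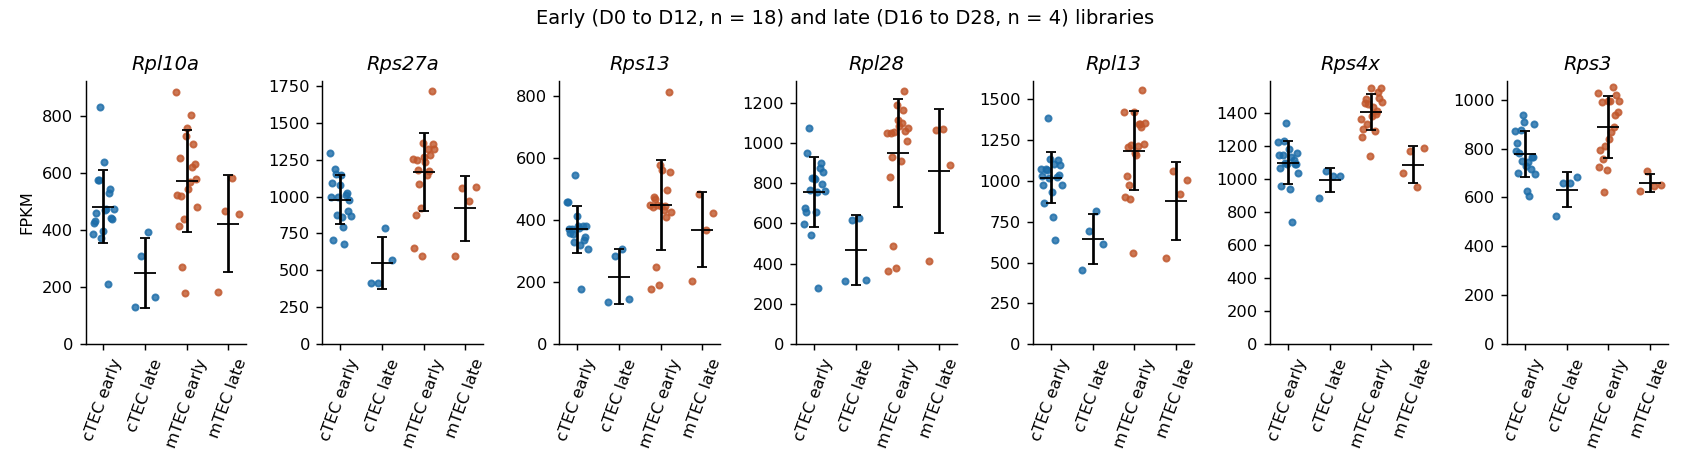
FPKM of the 5 called genes with the largest change in late cTECs (Rpl10a, Rps27a, Rps13, Rpl28, Rpl13) and the 2 called in late mTECs (Rps4x, Rps3) in early (n = 18) and late (n = 4) libraries of each cell type. Points are libraries and bars are mean ± SD, each panel starting at 0. Late points lie low but overlap the early ones in every panel, as for Rps27a in cTECs, where D24 reads 788 against an early range of 675 to 1292.

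cTECs and mTECs differed most broadly. With the time points as a covariate 58 of 80 RP genes were lower in cTECs and none was higher, against 26.7% of the 18394 genes tested that were called lower. They were 34 large-subunit and 24 small-subunit genes, and the differences were small, with log2 fold changes from -0.67 to -0.17 among those called and a median of -0.24 against 0.01 for all genes. edgeR called 54 and DESeq2 67. Over all genes tested 4424 were higher and 4918 lower in cTECs, and 2918 and 5751 in DESeq2 with its own size factors. All 3 genes of the stalk were lower in cTECs, with log2 fold changes of -0.38 for Rplp0 (SE 0.05, adjusted p = 1.82e-08), -0.23 for Rplp1 (SE 0.07, adjusted p = 0.00764) and -0.29 for Rplp2 (SE 0.09, adjusted p = 0.00478), as was Rpsa (-0.37, SE 0.06, adjusted p = 6.6e-07).

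Rps9, at the entry of the mRNA, ran from 638 to 1246 FPKM with a median of 965 in cTECs and from 941 to 1866 with a median of 1487 in mTECs (log2 fold change -0.57, SE 0.07, adjusted p = 7.24e-10). Rps24, a gene mutated in Diamond-Blackfan anaemia, ran from 977 to 1876 with a median of 1481 and from 1438 to 2350 with a median of 1912 (-0.45, SE 0.06, adjusted p = 2.13e-09). These genes have no copies, and the ranges of the cell types overlapped in each, as in all 80 members, while 0.560% of all genes tested lay fully lower and 0.250% fully higher in cTECs.

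Rpl15 ran from 304 to 703 FPKM with a median of 506 in cTECs and from 489 to 1017 with a median of 731 in mTECs (-0.51, SE 0.06, adjusted p = 2.37e-09). Rpl27 had the largest fold change and the largest SE: it ran from 0 to 71.1 with a median of 22.3 and from 0 to 78.6 with a median of 34.96 (-0.67, SE 0.26, adjusted p = 0.0305), and 96.5% of its family's counts lay on copies. With those added it was -0.29 (adjusted p = 0.000801). The 6 genes with a positive value, Rps27l (0.14, adjusted p = 0.163), Rps28 (0.07), Rpl5 (0.05), Rpl13a (0.03), Rps10 (0.02) and Rpl22 (0.02), were not called.

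Taken by time point, 22 of 80 members were called lower in cTECs at NPC, against 6.62% of all genes tested, 24 at D6 against 6.93% and 11 at D12 against 9.39%, with a median of -0.56 at D6. None was called higher at these time points, against 6.67%, 2.98% and 12.2% of all genes. At D-2 and D3 no member was called, while 3.07% and 3.10% of all genes were called lower and 2.06% and 2.41% higher, and the members' medians were 0.01 and 0.04. At D0 1 member was called higher in cTECs and none lower, against 3.20% and 4.37% of all genes, with a median of 0.03. That gene was Rpl5, which was listed at 0 in mTEC D0 replicate 2. Over all time points, leaving out the libraries with a low mitochondrially encoded share gave 59 calls. The cTEC samples at NPC and D6 and the mTEC samples at D3 each include such a library. Single time points were not tested without it. The other contents of the sorted cells differed as well: 16 of 20 thymocyte markers were higher in cTECs. In mTECs 10 of 13 macrophage and dendritic cell markers tested and 13 of 14 cell-cycle genes were higher. Of 13 immediate-early and heat-shock genes 7 were higher in cTECs. The part of all these genes in the RP difference was not tested.

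**Figure D5:**
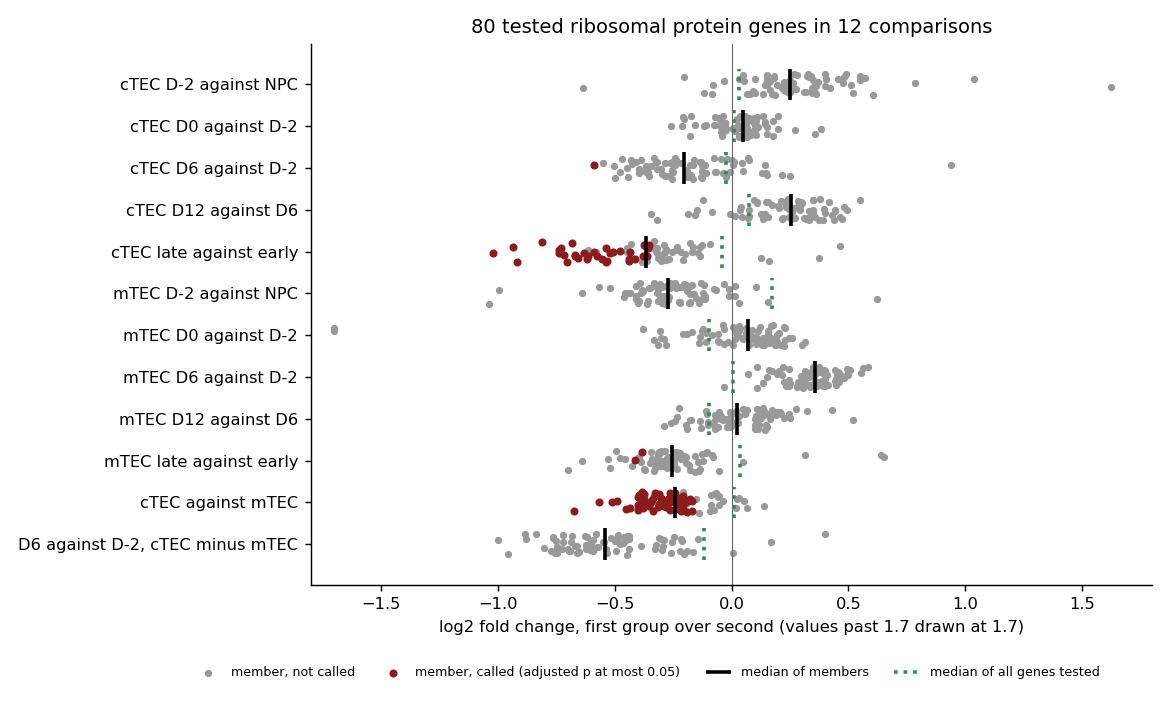
log2 fold change of each of the 80 tested RP genes (x axis, first group over second) in 12 comparisons (rows), with called genes in red, the members' median as a black line and the median of all genes tested as a dotted green line. Values past 1.7 in either direction are drawn at that limit. Called genes are seen for cTEC late against early (34), mTEC late against early (2), cTEC D6 against D-2 (1) and cTEC against mTEC (58), and in each of these the members' median lies left of that of all genes.

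Genes with related work were compared from lists chosen with the same results known. In late cTECs 4.72% of all genes tested were called lower, and 950 of 15833 higher. The 4 RP genes outside the symbol rule had a median of -0.40 and 0 calls there. Of 21 translation factors and other mRNAs of this kind 2 were lower (median -0.14), of 40 ribosome biogenesis genes 3 were lower (-0.21), and of 12 genes of RNA polymerase I none was called (0.01). Of the 19 tested regulators of the family, MYC and mTORC1 among them, 1 was lower (0.00). The 78 mitochondrial RP genes, which build the separate ribosome of mitochondria, had 10 lower and a median of -0.30.

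Between cTECs and mTECs 4424 of the 18394 genes tested were called higher in cTECs and 4918, or 26.7%, lower. Beside these the lists stood as follows. The 4 RP genes outside the rule had 3 lower in cTECs (median -0.26). The translation factors had 9 lower and 3 higher of 21 (-0.10), and ribosome biogenesis 9 lower and 6 higher of 40 (-0.06). Of the 19 tested regulators of the family 7 were higher and 1 lower in cTECs, with 17 positive values (0.12). Of the 12 genes of RNA polymerase I 2 were lower and 0 higher (0.03). The mitochondrial RP genes had 19 of 78 higher in cTECs, 6 lower and a positive median of 0.13. In the step from D-2 to D6 the mitochondrial RP genes had medians of 0.26 in cTECs and 0.31 in mTECs, against -0.21 and 0.36 for the cytosolic ones, with 1 and 0 called.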

How the data were processed

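RNA-seq of 28 cTEC and 28 mTEC libraries was analysed. The authors trimmed reads with Trimmomatic 0.35, aligned them to GRCm38 with STAR 2.5.1b and quantified genes with RSEM 1.2.28 (base calls by bcl2fastq 2.20, per the labels). The annotation release is not given in the sources used here. The deposited files hold, for each of 50600 genes, an expected count, which is an estimated count without normalization, and an FPKM value. The deposited posterior mean counts and their posterior SD were used only to check how far copies could be told apart. GENCODE M21 matched 50376 identifiers.

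Expected counts were rounded to whole numbers, scaled by TMM (edgeR 4.0.16) and tested with limma 3.58.1 (voom) in R 4.3.3 over genes with a mean of at least 0.5 FPKM. Time points were compared within a cell type in 1 fit of its 28 samples, phases in a fit of the early and late samples, and cell types in a fit of all 56. A gene was called where its p, adjusted by Benjamini and Hochberg over all genes tested, did not exceed 0.05. The study's rule, a fold of at least 2 with adjusted p of at most 0.01, was an alternative. The other alternatives were edgeR's quasi-likelihood test, DESeq2 1.42.0, other scalings and filters, sample quality weights, single libraries left out, a replicate block and copies added to their genes. Shares of all genes called are those of the main fit unless a setting or time point is named. Genes named in the text were, per comparison, the called members (the 5 with the largest fold change where more were called) or the 3 highest and 3 lowest, with paralogs, the 5 highest and 5 lowest by level and the 5 most variable. The stalk genes, Rpsa, Rpl11, Rpl9, Rpl37, Rps3a1, the named marker genes of other lists, and repeats of named genes in other comparisons were added after their values were seen. The members and all lists were chosen with earlier results of these data known.

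On simulated counts for cTEC late against early, run on 15830 genes, 37 of 50 genes changed 2-fold and 9 of 50 changed 1.5-fold were called, with 43 false calls among 136, 2 of them among 1546 highly expressed unchanged genes. For cTEC D6 against D-2, on 15844 genes, 6 of 50 changed 2-fold were called, with 3 false calls among 54. For mTEC late against early, on 17718 genes, 32 of 50 changed 2-fold were called, with 49 false calls among 138. Of these 49 calls 1 was among 1744 highly expressed unchanged genes. For cTEC against mTEC, on 18393 genes, 35 of 50 changed 1.5-fold were called, with 28 false calls among 179. Of these 28 calls 1 was among 1797 highly expressed unchanged genes. The number of false calls among genes that move together across libraries, as most RP genes did, was not tested. Depth ran from 4561208 to 108547384 counts per library. P-values for time points within a cell type measure the spread between mice. In the fit of late against early samples the spread also holds differences between the days of a phase. The fit of cell types treated all samples as independent, although a cTEC and an mTEC sample may come from the same mouse. Its spread also holds changes of the cell type difference over time. Results for some members are not reported here.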

Additional observations from a re-analysis of the deposited data

Results flagged for a closer look

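In a group of 4 late samples 1 library stood apart from the other 3 in 4 of the 84 items tested for such gaps, where chance marks about 1 in 20. The items were named genes and the share of counts held by the RP genes, in each cell type. In cTECs the D16 sample was the lowest for Rpl31, at 334.89 FPKM against 395 to 407 in the other 3, and for Rps3, at 525.6 FPKM against 658 to 684. In mTECs the D16 sample was the lowest for Rps10, at 571.32 FPKM against 908 to 947, and for Rps14, at 1033.26 FPKM against 1672 to 1767. The D16 cTEC library had a mitochondrially encoded share of 1.41%, and its part in these values was not tested.

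Counts on copies lie outside the main measurement. For 12 RP genes over 50% of the counts of the gene and its copies were assigned to copies, up to 96.7% for Rpl5.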

How the results depend on the processing

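The counts in this section are of RP genes only. Whether a setting called these genes in particular or genes in general cannot be read from them. Scaling without the RP genes changed no count by over 1.5 times, and adding pseudogenes matched by symbol did so in no comparison. In cTEC late against early, edgeR called 19 RP genes, no filter 52, quality weights 69 (median -0.61), the study's rule 1, 1 mean per time point 57, libraries with a low mitochondrially encoded share left out 11, and D12 counted as late 0 (median -0.20). In cTEC D6 against D-2 there were 0 in edgeR, without a filter, under the study's rule and without the low libraries, 2 with upper-quartile factors, 3 with quality weights, 3 with copies added (added after seeing the data, as was leaving out the low libraries), 10 in DESeq2 and 4 with a replicate block. In mTEC late against early there were 0 in edgeR, under the study's rule and with D12 as late, 1 with quality weights, 12 without the low library and 53 without a filter. In mTEC D-2 against NPC DESeq2 and no TMM called 1 each and no filter 32. DESeq2 called 1 in cTEC D-2 against NPC, and no filter 6 in cTEC D12 against D6 (median 0.10). Without a filter the median was -0.36 in mTEC D0 against D-2, a reversed sign, 0.0251 in mTEC D6 against D-2 and -0.10 in the interaction. Quality weights gave 1 call in mTEC D0 against D-2, 65 in mTEC D6 against D-2, 38 in the interaction, and 1 in mTEC D12 against D6 with a median of -0.00533, a reversed sign. Between cell types the study's rule called 0, NPC alone 22, D6 alone 24 (median -0.56) and D12 alone 11. D-2 alone called 0, D0 alone 1 and D3 alone 0, with reversed medians of 0.0082, 0.0298 and 0.0354, and Rpl27 at D0 alone was 2.87. The causes were not tested.

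Leaving out 1 library at a time, the calls ran from 13 to 40 in cTEC late against early (median -0.44 to -0.28), 0 to 6 in cTEC D6 against D-2 (-0.33 to -0.10), 0 to 12 in mTEC D-2 against NPC (-0.54 to -0.17) and 0 to 6 in mTEC late against early (-0.36 to -0.19). They stayed at 0 in the other 7 such comparisons, with medians of 0.19 to 0.33 in cTEC D-2 against NPC, -0.00501 to 0.10 in cTEC D0 against D-2, 0.11 to 0.39 in cTEC D12 against D6, -0.11 to 0.31 in mTEC D0 against D-2, 0.19 to 0.56 in mTEC D6 against D-2, -0.0395 to 0.15 in mTEC D12 against D6 and -0.78 to -0.40 in the interaction. The labels do not say that equal replicate numbers mark 1 mouse or day. Within a cell type, samples were paired by their order within the time point, which is not always the number in the label. Their deviations from the time point means had a median r of 0.0141 over 45 pairs of cTECs and -0.0116 over 45 of mTECs. Over 16 pairs of a cTEC and an mTEC sample with the same label number it was 0.0219. With the label number as a block 50 RP genes were called between cell types and 0 in the interaction. Between time points within a cell type the block was the order of the replicates. A block moved the count by over 1.5 times only in cTEC D6 against D-2. Counts of 3 samples a group and 4 late samples limit all comparisons over time.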
